A study of Mus musculus with 7 samples.

Results

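A set of 10 marker genes of blood vessel and liver sinusoid endothelium were read on 7 mouse expression arrays, in induced hepatocyte-like cells (iHep), in hepatocytes from adult liver and in embryonic fibroblasts (MEF). The genes were Kdr, Flt1, Tek, Tie1, Pecam1, Cdh5, Erg, Stab2, Clec4g and Lyve1. They were chosen by name, through the gene name in the scanner files or the current symbol of the probe's accession, and all 10 were on the array among 27583 genes and unnamed probes. They were covered by 22 probes. Lyve1 is listed on the array under its older name Xlkd1.

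The study compared 3 types of iHep cells, labelled 4α1, 4α2 and 4α3 (types 1, 2 and 3 below, 1 array each), with adult hepatocytes (1 array) and with the fibroblasts from which the iHep cells were derived (3 arrays, embryos of 13.5 days post coitum). All cells were C57BL/6. iHep cells are made by giving fibroblasts liver transcription factors, in this study, as is known, Hnf4a together with Foxa1, Foxa2 or Foxa3. The sources used here do not give what the last digit of a type stands for, how the hepatocytes were separated from other liver cells, or whether the iHep cells are clones. The difference between the arrays MEF 2 and MEF 3 did not exceed that between repeated spots of a probe, so they were averaged and count as 1 sample, which gives iHep n = 3, hepatocyte n = 1 and MEF n = 2. The 3 iHep arrays and MEF 1 shared a slide, MEF 2 and MEF 3 shared another, and the hepatocyte array lay on a slide of its own, so that slide and cell type cannot be told apart for hepatocytes. On each array 60.2% to 68.7% of probes were well above background.

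Endothelial cells line blood vessels and are commonly recognised by a small set of surface proteins. VEGF, the main growth factor of vessels, acts through the receptor kinases encoded by Kdr and Flt1, and angiopoietins act through the receptor encoded by Tek, with Tie1 as its partner. Cdh5 and Pecam1 hold neighbouring endothelial cells together at their junctions, and the ETS transcription factor Erg maintains expression of many endothelial genes. In the liver, a specialised endothelium with open pores lines the sinusoids beside the hepatocytes. It takes up waste molecules from the blood through scavenger receptors such as Stab2 and carries the lectin Clec4g and the hyaluronan receptor Lyve1.

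The 4 receptor kinases that take part in VEGF and angiopoietin signalling are shown by their promoters, because Kdr and Tek were called in all 3 comparisons described below and Tie1 in 2, while Flt1 did not pass the test in any. The sequences are from RefSeq (build GRCm38.p6) and run from 250 bases before to 50 bases after the start of the gene. Capitals mark the letters that were searched. For ETS factors such as Erg they were AGGAAG or on the other strand CTTCCT, and for GATA factors AGATAA or TTATCT. Other letters that these factors may bind were not searched, so a window without capitals may still hold such sites.
Kdr, chr5:75978406-75978705, minus strand: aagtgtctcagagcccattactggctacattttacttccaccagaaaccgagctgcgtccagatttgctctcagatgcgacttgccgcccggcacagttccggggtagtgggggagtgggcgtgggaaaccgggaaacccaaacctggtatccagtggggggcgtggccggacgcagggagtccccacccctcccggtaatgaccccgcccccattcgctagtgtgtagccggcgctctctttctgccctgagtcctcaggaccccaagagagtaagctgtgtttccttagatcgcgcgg
Flt1, chr5:147725962-147726261, minus strand: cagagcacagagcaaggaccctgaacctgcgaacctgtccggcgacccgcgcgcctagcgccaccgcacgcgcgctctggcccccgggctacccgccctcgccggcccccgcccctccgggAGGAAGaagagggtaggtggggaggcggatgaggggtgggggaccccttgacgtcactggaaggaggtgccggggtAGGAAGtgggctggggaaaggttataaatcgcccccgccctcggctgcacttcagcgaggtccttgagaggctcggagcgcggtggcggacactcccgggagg
Tek, chr4:94739039-94739338, plus strand: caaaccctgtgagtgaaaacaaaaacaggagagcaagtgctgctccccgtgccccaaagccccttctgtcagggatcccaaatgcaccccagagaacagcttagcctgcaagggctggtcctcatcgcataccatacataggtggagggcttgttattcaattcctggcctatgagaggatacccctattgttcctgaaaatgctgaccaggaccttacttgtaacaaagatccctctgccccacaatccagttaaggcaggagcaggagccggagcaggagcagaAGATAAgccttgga
Tie1, chr4:118489800-118490099, minus strand: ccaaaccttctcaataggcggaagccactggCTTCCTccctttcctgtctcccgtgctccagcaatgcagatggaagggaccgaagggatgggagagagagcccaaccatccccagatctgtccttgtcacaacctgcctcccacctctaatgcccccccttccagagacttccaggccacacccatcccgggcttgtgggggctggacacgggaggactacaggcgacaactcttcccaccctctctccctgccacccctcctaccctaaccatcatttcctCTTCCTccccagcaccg
The Kdr window held neither set of letters. The Flt1 window held the ETS letters at 2 places, 129 and 53 bases before the start, and the Tie1 window at 2 places on the other strand. The Tek window held the GATA letters once, 36 bases after the start. Of all 32851 promoters of this length, 35.4% held the ETS letters and 11.2% the GATA letters on either strand. Among the 7 members with a promoter in the table (9 promoters, of which 3 were of Erg), 5 had the ETS letters in at least 1 promoter and 2 had the GATA letters. A match is a description of the letters and not of binding.

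Levels are log2 of the signal minus the log2 of the array's 75th percentile, so 0 marks the 75th percentile and a step of 1 is a doubling. A gene with several probes is represented by the one with the highest mean level over the arrays. Levels of different probes are not comparable, and each gene is described across arrays only. The probes that stand for the members lie, in the array's own annotation of build mm8, at chr5:76214981-76215040 (Kdr), chr5:147872564-147872623 (Flt1), chr4:94233814-94233873 (Tek), chr4:117969459-117969518 (Tie1), chr11:106497165-106499018 (Pecam1), chr8:107033388-107033447 (Cdh5), chr16:95468434-95468493 (Erg), chr10:86271252-86271311 (Stab2), chr8:3716182-3716241 (Clec4g) and chr7:110641838-110641897 (Lyve1). No exon annotation for that build was used. No probe of a member was saturated on any array, and 6 of the 22 were not well above background anywhere.

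The hepatocyte array was the only one on which all 10 members were well above background. The iHep arrays of types 1, 2 and 3 had 4, 4 and 3 members well above background, and MEF 1, MEF 2 and MEF 3 had 5, 7 and 7. Flt1 and Stab2 were detected on all 7 arrays. Kdr, Tek and Erg were detected on the hepatocyte array and all 3 MEF arrays and on no iHep array, and Pecam1, Cdh5 and Tie1 on the hepatocyte array alone. The detection of all genes differed much less between arrays, with 60.1% to 62.3% well above background on the iHep arrays, 62.3% on the hepatocyte array and 59.4% to 67.3% on the MEF arrays. The mean level of the 10 members was -5.14, -6.14 and -6.04 on the iHep arrays, -0.55 on the hepatocyte array and -4.43, -4.52 and -4.35 on the MEF arrays. In RNA from whole cultures or preparations, fewer cells of a type and less RNA per cell cannot be told apart.

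**Figure D1:**
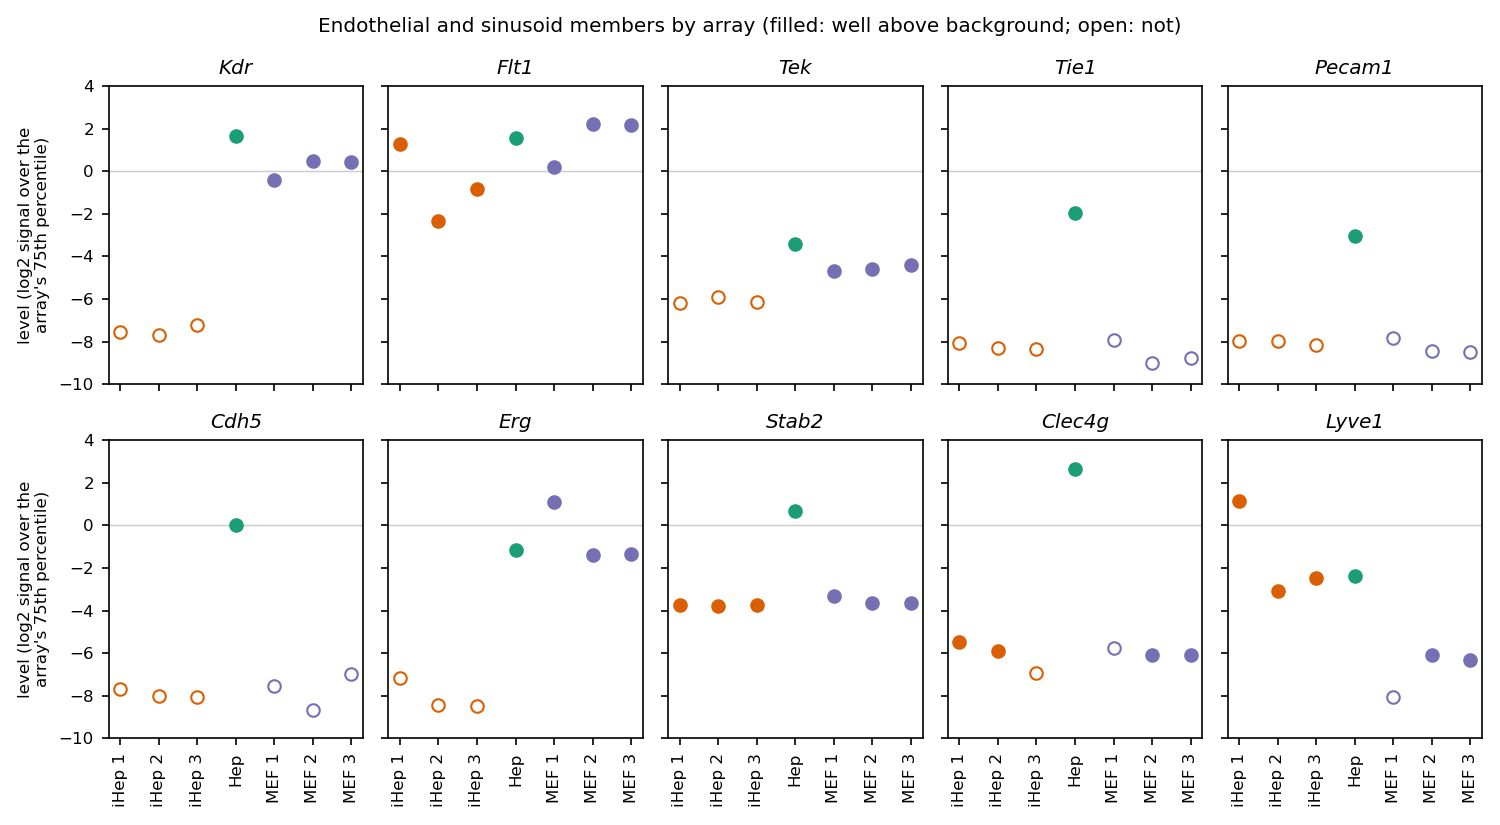
Level of each member on each array (log2 signal over the array's 75th percentile, vertical axis), for 3 iHep arrays, 1 hepatocyte array and 3 MEF arrays; filled points are well above background and open points are not. All 10 members have a filled point on the hepatocyte array, and Pecam1, Cdh5 and Tie1 have filled points on no other array.

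Against MEF, the iHep cells had lower levels of Kdr, Tek and Erg and a higher level of Lyve1, while the other 6 members did not pass the test. The comparison asks what changed between the fibroblasts and the cells derived from them. Calls are limma results with a Benjamini-Hochberg adjusted p below 0.05 over 19135 tested genes, and 23.3% of all tested genes were called in this comparison (10.1% higher and 13.2% lower), against 4 of the 10 members. The median fitted difference of the members was -0.24 on the log2 scale, against -0.04 over all tested genes. Hepatocytes had higher levels than MEF of 7 members (Kdr, Tek, Tie1, Pecam1, Cdh5, Stab2 and Clec4g), and no member was lower. Here 53.5% of all genes were called (28.4% higher and 25.1% lower), and the median difference of the members was 4.46, or 3.68 with members at their bounds, against 0.14 over all genes. Compared with hepatocytes, iHep cells had lower levels of 8 members, all but Flt1 and Lyve1, in a comparison where 49.2% of all genes were called (22.1% higher and 27.1% lower). The members' median was -5.63, or -4.24 with bounds, against -0.17 over all genes.

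Pecam1, Cdh5, Tie1 and Clec4g entered the tests only because they were well above background on the hepatocyte array. They therefore had to differ from any group in which they were not detected. The counts and the median differences for hepatocytes lend no support of their own. The same holds for genes named from the lists below that passed only through the hepatocyte array. They were Robo4, Cldn5, Sox18, Dnase1l3, Gpr182, Clec4f, Cd163, Alas2 and Lrat. Angpt4 passed only through the MEF arrays and Jag2 only through the iHep arrays. Their higher levels in those groups likewise lend no support of their own. The spread of the fit comes from the iHep and MEF samples, and the single hepatocyte array is assumed to vary like them. The p-values measure the spread between these samples, and the iHep arrays differ by type. Within the slide shared with the iHep arrays MEF 1 is the only MEF sample, so those values equal the ones without MEF 2 and 3, the spread comes from the iHep arrays, and MEF 1 is assumed to vary like them. Folds are written "at least" where the lower group had no array with the probe well above background. For such a bound the lower group's level on each array was raised to the lowest level well above background there, unless the probe itself read higher, and averaged before comparison with the higher group's mean.

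**Figure D2:**
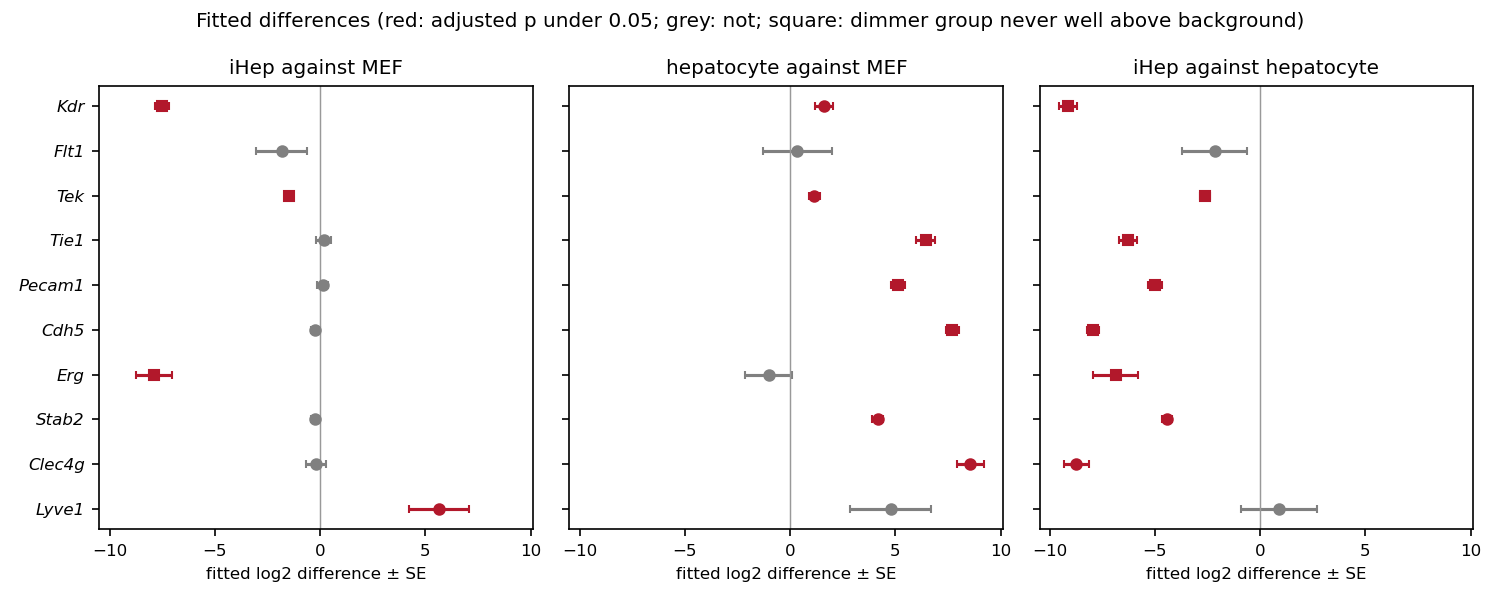
Fitted log2 differences with their standard errors (horizontal axis) for the 10 members in the 3 comparisons. Samples were iHep n = 3, hepatocyte n = 1 and MEF n = 2. Red points passed an adjusted p of 0.05. Squares mark probes detected in the higher group and on no array of the lower group. For iHep against MEF, Pecam1, Cdh5 and Tie1 are circles although neither group detected them. Kdr, Tek and Erg lie left of 0 in both iHep panels, and Lyve1 lies right of 0 against MEF.

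Kdr, the main signalling receptor of VEGF in endothelium, was at -7.53, -7.69 and -7.24 in iHep types 1, 2 and 3, at 1.64 in hepatocytes and at -0.42, 0.50 and 0.44 in MEF 1, 2 and 3. No iHep array overlapped with any other array. iHep cells were lower than MEF at least 67.5-fold (adjusted p = 0.000582, limma) and hepatocytes exceeded them by a factor of at least 207 (adjusted p = 0.000239). The fitted difference from MEF was -7.51, and -7.07 against MEF 1 alone on the shared slide (adjusted p = 0.00829), and both rest on iHep readings below detection. With a normexp background correction (offset 50) it was -3.70 and still called (adjusted p = 0.00102). Hepatocytes were above every MEF array, by 1.61 ± 0.44 on the log2 scale (SE, adjusted p = 0.0315, limma), or 3.06-fold. Without MEF 1 this difference was 1.17 and was no longer called (adjusted p = 0.0728), and without iHep type 1 or type 2, which enter only through the spread, its adjusted p was 0.0617 and 0.0505. The second Kdr probe gave no signal well above background.

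Flt1, the second VEGF receptor, which binds the factor tightly and also gives a shorter secreted form, was detected everywhere. Its level was 1.29, -2.35 and -0.83 in iHep types 1, 2 and 3, 1.54 in hepatocytes and 0.19, 2.23 and 2.15 in MEF. Type 1 lay within the range of the MEF arrays, and types 2 and 3 lay below all of them. The differences of -1.82 ± 1.21 for iHep against MEF (adjusted p = 0.330), 0.35 ± 1.62 for hepatocytes against MEF (adjusted p = 0.868) and -2.17 ± 1.53 for iHep against hepatocytes (adjusted p = 0.287) did not pass the limma test.

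Flt1 had 5 probes, and 3 were detected on all 7 arrays. The 2 at the same end of the gene, 0.073 kb apart, moved alike, and the second of them read -0.90, -4.93 and -2.87 in iHep types 1 to 3, -0.89 in hepatocytes and -1.93, -0.26 and -0.42 in MEF. A more distant probe, 76.0 kb away on the array's build, read -0.08, -3.51 and -3.71 in iHep, -3.49 in hepatocytes and -1.71, 0.09 and 0.14 in MEF. This distant probe put the hepatocyte array below every MEF array, where the other detected probes put it within their range. Fitted on its own among 28911 probes, the distant probe gave -2.70 ± 1.73 for hepatocytes against MEF, which did not pass the test (adjusted p = 0.240, limma). No Flt1 probe was called in any comparison, so the gene's direction in hepatocytes is not settled here.

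**Figure D3:**
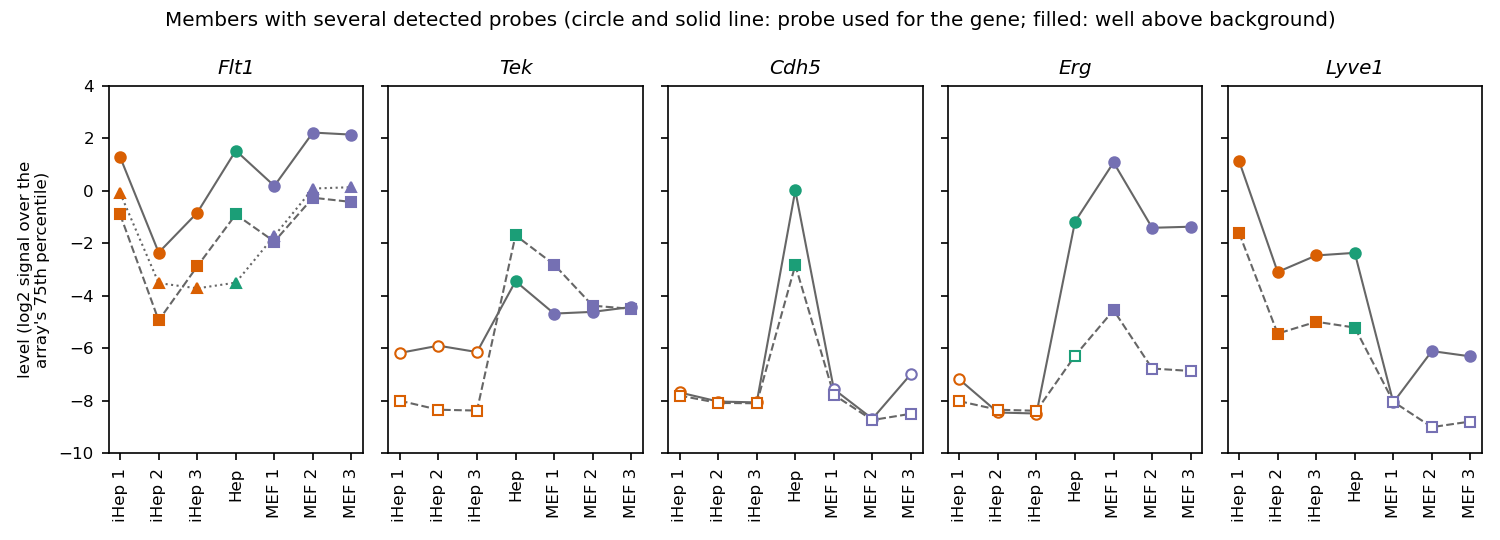
Levels by array (log2 signal over the array's 75th percentile) for all probes of Flt1, Tek, Cdh5, Erg and Lyve1 that were well above background on at least 1 array; circles with solid lines are the probes that stand for the gene, and filled points are well above background. On the hepatocyte array the Flt1 probes split, with triangles at -3.49 and circles at 1.54.

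Tek, the angiopoietin receptor also called Tie2, followed the order of Kdr. Its level was -6.17, -5.89 and -6.14 in iHep types 1, 2 and 3, below detection on each, against -3.44 in hepatocytes and -4.67, -4.61 and -4.42 in MEF. The 3 groups did not overlap. iHep cells were lower than MEF at least 2.60-fold (adjusted p = 0.00791, limma), and the bound against hepatocytes was 5.78-fold (adjusted p = 0.00128). Hepatocytes were 2.23-fold above MEF, a log2 difference of 1.15 ± 0.26 (adjusted p = 0.0164). Without MEF 1 the differences were -1.55 for iHep against MEF (adjusted p = 0.0501) and 1.08 for hepatocytes against MEF (adjusted p = 0.0657), and within the slide shared with MEF 1 the first was -1.40 (adjusted p = 0.0598). A normexp background correction with an offset of 50 reduced them to -0.38 (adjusted p = 0.125) and 0.52 (adjusted p = 0.0720).

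A second Tek probe, 132 kb away, ranged more widely. It read -7.99, -8.34 and -8.37 in iHep, below detection, -1.69 in hepatocytes and -2.80, -4.37 and -4.49 in MEF. Fitted on its own, in a fit that called 24.3%, 52.1% and 47.6% of all probes in the comparisons of iHep with MEF, hepatocytes with MEF and iHep with hepatocytes, it was lower in iHep than in MEF at least 5.41-fold (adjusted p = 0.00496, limma). It was also lower in iHep than in hepatocytes, at least 20.6-fold (adjusted p = 0.00150). The hepatocyte difference from MEF at this probe, 1.93 ± 0.68, did not pass the test (adjusted p = 0.0639).

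Tie1, the orphan receptor that pairs with Tek, was well above background on the hepatocyte array only. It was at -8.05, -8.32 and -8.37 in iHep, at -1.98 in hepatocytes and at -7.93, -9.02 and -8.77 in MEF. The hepatocyte level was at least 19.4-fold above MEF (adjusted p = 0.000560, limma), and iHep cells were at least 16.8-fold below hepatocytes (adjusted p = 0.000600). iHep and MEF overlapped below detection, so no fold is given between them.

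The junction genes Pecam1 and Cdh5, like Tie1, were detected on the hepatocyte array alone. Pecam1, which encodes the adhesion protein CD31 of endothelium, platelets and some leukocytes, was at -7.98, -7.98 and -8.17 in iHep, at -3.04 in hepatocytes and at -7.85, -8.44 and -8.51 in MEF. Hepatocytes were at least 9.27-fold above MEF (adjusted p = 0.000489, limma), and iHep cells at least 8.05-fold below hepatocytes (adjusted p = 0.000507). A second probe named Pecam1 in the files, whose clone is described there as another gene, was detected on no array.

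Cdh5, the gene of VE-cadherin, was at -7.68, -8.02 and -8.06 in iHep, at 0.02 in hepatocytes and at -7.55, -8.68 and -6.98 in MEF. The hepatocyte array stood apart from all 6 other arrays, which overlapped below detection. Its level was at least 77.5-fold above MEF (adjusted p = 0.000209, limma), and iHep cells were at least 67.2-fold below it (adjusted p = 0.000175). The second Cdh5 probe gave bounds of 10.8-fold (adjusted p = 0.000659) and 9.36-fold (adjusted p = 0.000728) for the same comparisons, likewise with detection on the hepatocyte array alone.

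Erg was detected in hepatocytes and fibroblasts and not in iHep cells. It was at -7.18, -8.44 and -8.48 in iHep, below detection, at -1.17 in hepatocytes and at 1.09, -1.40 and -1.36 in MEF. iHep cells were lower than MEF at least 59.9-fold (adjusted p = 0.00492, limma). The fitted difference, which rests on iHep readings below detection, was -7.89 and depended on MEF 1, at -6.65 without it (adjusted p = 0.0194) and -9.12 against it alone on the shared slide (adjusted p = 0.0114). A normexp background gave -3.74 (adjusted p = 0.00997). They were lower than hepatocytes at least 29.5-fold (adjusted p = 0.00616). Hepatocytes lay between MEF 1 and the other MEF arrays, and their difference from MEF, -1.02 ± 1.13, did not pass the test (adjusted p = 0.479) and was 0.21 without MEF 1 (adjusted p = 0.847). The second Erg probe, 0.713 kb away, was well above background on MEF 1 only, at -4.54.

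Stab2, a scavenger receptor that clears hyaluronan from the blood, was low and even outside the hepatocyte array. It was at -3.75, -3.77 and -3.72 in iHep, at 0.66 in hepatocytes and at -3.34, -3.64 and -3.65 in MEF, well above background on every array. Hepatocytes were 17.8-fold above MEF, a log2 difference of 4.15 ± 0.25 (adjusted p = 0.000408, limma). iHep cells were 21.2-fold below hepatocytes, a log2 difference of -4.40 ± 0.24 (adjusted p = 0.000326). The difference between iHep and MEF, -0.25 ± 0.19, did not pass the test (adjusted p = 0.376), although all 3 iHep arrays lay below all 3 MEF arrays.

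Clec4g, a lectin of the liver and lymph node sinusoids, stood far higher in hepatocytes than in the other cells. It was at -5.45, -5.89 and -6.95 in iHep, where types 1 and 2 were just above background, at 2.63 in hepatocytes and at -5.77, -6.07 and -6.07 in MEF, where MEF 2 and MEF 3 were. Hepatocytes were 375-fold above MEF, a log2 difference of 8.55 ± 0.64 (adjusted p = 0.000647, limma), and the difference of iHep from hepatocytes was -8.73 ± 0.61 (424-fold lower, adjusted p = 0.000630). These folds rest on levels near the limit of detection in iHep and MEF. The iHep and MEF arrays overlapped (-0.18 ± 0.48, adjusted p = 0.817). The other 2 Clec4g probes were not well above background on any array.

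Lyve1, a receptor for hyaluronan on lymphatic and sinusoidal endothelium that is also carried by some macrophages, was the only member higher in iHep cells than in MEF. It was at 1.14, -3.09 and -2.46 in iHep types 1, 2 and 3, at -2.36 in hepatocytes and at -8.06, -6.10 and -6.30 in MEF, where MEF 1 was not well above background. Every iHep array was above every MEF array, and type 1 stood 3.49 log2 units above the hepatocyte array while types 2 and 3 lay just below it. The difference from MEF was 5.66 ± 1.43 (50.6-fold, adjusted p = 0.0473, limma), close to the threshold. Without MEF 1 it was 4.73 (adjusted p = 0.217), against MEF 1 alone on the shared slide it was 6.59 (adjusted p = 0.129), and without iHep type 2 or type 3 it was 6.47 and 6.15 (adjusted p = 0.0519 and 0.0682). It was 2.54 with a normexp background (adjusted p = 0.160), and the adjusted p was 0.0599 with no filter on dim probes and 0.0565 with the replicate number as a block. In each of these the direction held and the call did not. Without iHep type 1 the difference was 4.36 and was called (adjusted p = 0.0323).

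Hepatocytes were above MEF for Lyve1 as well, but the difference of 4.77 ± 1.92 did not pass the test (adjusted p = 0.0889, limma). It was called without iHep type 1, which enters only through the spread (adjusted p = 0.0172). iHep cells differed from hepatocytes by 0.89 ± 1.81 (adjusted p = 0.704), and without type 1 by -0.41 (adjusted p = 0.730). The second Lyve1 probe repeated the pattern, at -1.61, -5.44 and -4.98 in iHep, -5.20 in hepatocytes and below detection on the 3 MEF arrays. On its own its excess in iHep over MEF was at least 4.75-fold and did not pass the test (adjusted p = 0.0564).

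The iHep types have 1 array each and are given as values with no test. Flt1, Stab2 and Lyve1 were the members detected in all 3 types. Lyve1 and Flt1 varied among them over 4.22 and 3.64 log2 units, and Stab2 over 0.04. On the common slide Flt1 lay above MEF 1 in type 1 and differed from it by -2.54 and -1.02 in types 2 and 3. Lyve1 was not detected on MEF 1, and Kdr, Tek and Erg in no type, so no differences by type are given for them. Type 1 had the highest Flt1 and Lyve1 of the types at the probes used and at every other detected probe of Lyve1 and Flt1.

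Ligands, coreceptors and the phosphatase of the VEGF and angiopoietin system formed a list of 12 genes, chosen like the lists below with earlier results of these data known. Against MEF, 0 were higher, 3 were lower and 9 were not called in iHep cells, near the share of all genes called in that comparison (23.3%). The 3 were Nrp2, a VEGF coreceptor (-4.71 ± 0.48, adjusted p = 0.00418, limma), Angpt4, a Tek ligand (-4.11 ± 0.36, adjusted p = 0.00296), and Vegfb (-2.45 ± 0.50, adjusted p = 0.0277). Angpt4 was not detected in iHep type 2. In hepatocytes 2 were higher and 3 lower than in MEF, where 53.5% of all genes were called. The higher ones were Vegfa, the principal VEGF, and Ptprb, the endothelial phosphatase that acts on the Tek receptor (4.83 ± 1.33, adjusted p = 0.0314, limma). The lower ones were Angpt4 (at least 19.9-fold, adjusted p = 0.000976), Vegfd (-4.08 ± 1.09, adjusted p = 0.0287) and Nrp2 (-3.37 ± 0.64, adjusted p = 0.0102). The median difference of the list from MEF was -1.90 in hepatocytes, against 0.14 over all tested genes. Vegfa was at 1.31, 1.56 and 1.60 in iHep types 1, 2 and 3, at 3.67 in hepatocytes and at 1.25, 1.84 and 1.78 in MEF, and iHep cells were lower than hepatocytes (-2.18 ± 0.31, adjusted p = 0.00491). Flt4, the VEGF receptor of lymphatic endothelium, did not pass the test in any comparison (0.44 ± 0.51 for iHep against MEF, adjusted p = 0.574).

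Among 18 other endothelial surface genes, 17 were tested. In iHep cells against MEF, 3 were higher and 5 lower (23.3% of all genes were called), with a median difference of -0.58, or -0.42 with bounds. Emcn, a sialomucin of capillary and venous endothelium, was not detected on any iHep array and was lower at least 33.1-fold (adjusted p = 0.00158, limma). Eng, a TGF-β coreceptor (-3.39 ± 0.75, adjusted p = 0.0332), Cd34 (-3.27 ± 0.52, adjusted p = 0.0135) and Mcam (-4.24 ± 0.58, adjusted p = 0.00938) also fell. Podxl, a sialomucin of vessels and of kidney podocytes, rose by 8.87 ± 0.66 (adjusted p = 0.00191), a size that rests on low MEF readings. MEF 1 did not detect it, and MEF 2 and MEF 3 read -5.75 and -5.89. In hepatocytes 6 of the 17 were higher than in MEF and 3 lower, a share near the 53.5% called over all genes. The higher ones included Robo4, a guidance receptor of endothelium (7.86 ± 0.43, adjusted p = 0.000329), and Cldn5, a tight junction protein of endothelium (at least 82.5-fold, adjusted p = 0.000826). MEF 1 did not detect Robo4, and MEF 2 and MEF 3 read -5.59 and -5.51. Eng did not pass this test (0.77, adjusted p = 0.543), and Cd34 was lower (-4.66 ± 0.69, adjusted p = 0.00471). iHep cells had 2 higher and 9 lower than hepatocytes, where 49.2% of all genes were called, with Robo4 lower at least 310-fold (adjusted p = 0.000251).

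Of 18 transcription factors with roles in endothelium 16 were tested. In iHep cells 1 was higher and 6 were lower than in MEF, where 23.3% of all genes were called. Fli1, the ETS factor closest to Erg, had a log2 difference of -3.77 ± 0.51 (adjusted p = 0.00917, limma). It was at -4.97, -4.12 and -4.48 in iHep, -2.15 in hepatocytes and -1.48, 0.03 and -0.06 in MEF. Lmo2, which pairs with Tal1 in blood and endothelial progenitors, was lower at least 1.93-fold (adjusted p = 0.00870), and Gata2 was lower (-2.70 ± 0.46, adjusted p = 0.0166). Prox1, a factor of lymphatic endothelium and also of hepatocytes, rose by 3.67 ± 0.56 (adjusted p = 0.0120), and MEF 1 did not detect it. In hepatocytes 5 were higher and 4 lower than in MEF, near the 53.5% of all genes called. Sox18, a factor of endothelial cells, was higher at least 16.5-fold (adjusted p = 0.00336), beside Hhex and Prox1, which hepatocytes are also known to express. Fli1 did not pass this test (-1.40 ± 0.69, adjusted p = 0.143). Against hepatocytes, 2 were higher and 8 lower in iHep cells, where 49.2% of all genes were called.

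A list of 16 further liver sinusoid genes was well above background in full on the hepatocyte array, against 7, 11 and 8 on the iHep arrays and 11, 13 and 13 on the MEF arrays. Hepatocytes had 10 of 16 higher than MEF and 0 lower, beside 28.4% and 25.1% of all genes, and 4 of the 16 had entered the test only through the hepatocyte array. The list had a median difference of 2.74, or 2.42 with bounds, against 0.14 over all genes. Dnase1l3, a secreted nuclease, was higher at least 126-fold (adjusted p = 0.000906, limma), and Gpr182, an endothelial receptor, at least 173-fold (adjusted p = 0.00459). Fcgr2b, the inhibitory Fc receptor, was higher by 4.81 ± 0.85 (adjusted p = 0.00815) and Oit3 by 5.12 ± 0.97 (adjusted p = 0.0102). Stab1, the relative of Stab2 that macrophages also carry, was at -7.67, -5.69 and -8.09 in iHep, 1.22 in hepatocytes and -1.58, -0.61 and -0.56 in MEF. Of the iHep arrays only type 2 detected it. It was lower in iHep than in MEF (-6.06 ± 0.81, adjusted p = 0.00855) and than in hepatocytes (-8.37 ± 1.02, adjusted p = 0.00297), differences that rest largely on readings below detection, and its difference between hepatocytes and MEF did not pass the test (2.31 ± 1.08, adjusted p = 0.129). In iHep cells 0 of 16 were higher and 3 lower than in MEF, beside 10.1% and 13.2% of all genes. Compared with hepatocytes 0 were higher and 10 lower, beside 22.1% and 27.1% of all genes.

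**Figure D4:**
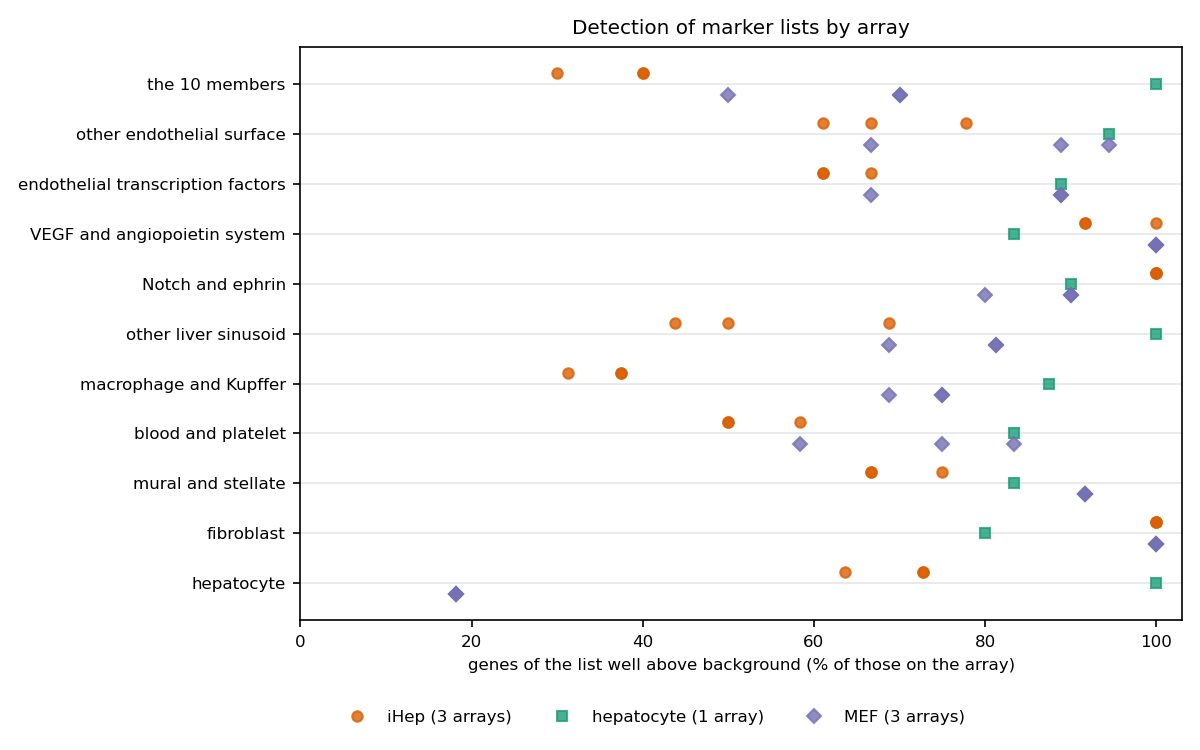
Share of the genes of each marker list that were well above background (% of those on the array, horizontal axis), for 3 iHep arrays, 1 hepatocyte array and 3 MEF arrays. On the hepatocyte array the 10 members and all 16 other sinusoid genes are detected, beside 14 of 16 macrophage and Kupffer cell genes and 11 of 11 hepatocyte genes.

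Markers of other cell types moved beside the endothelial genes, and their part in these results was not tested. Of 16 macrophage and Kupffer cell genes, 6, 6 and 5 were well above background on the iHep arrays, 14 on the hepatocyte array and 11, 12 and 12 on the MEF arrays, with mean levels from -6.23 to -5.64, at -1.45, and from -2.77 to -2.27 on the same arrays. Adgre1, a surface receptor of macrophages, was at -0.46 in hepatocytes and at -0.63, 0.71 and 0.59 in MEF, and no iHep array detected it (at least 66.8-fold below MEF, adjusted p = 0.000871, limma). Clec4f, a lectin of Kupffer cells, and Cd163, a macrophage scavenger receptor, were well above background on the hepatocyte array alone (at least 211-fold and 42.3-fold above MEF, with adjusted p = 0.000296 and 0.000392). Ptprc, the leukocyte antigen CD45, was at -2.70 in hepatocytes and -3.45, -2.12 and -2.17 in MEF, and no iHep array detected it (at least 9.54-fold below MEF, adjusted p = 0.00231). In all, 8 of 14 tested macrophage genes were lower and 1 higher in iHep cells than in MEF, and 5 were higher and 1 lower in hepatocytes than in MEF, in comparisons that called 23.3% and 53.5% of all genes.

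Of 12 blood and platelet genes on the array, 6, 6 and 7 were detected in iHep, 10 in hepatocytes and 7, 10 and 9 in MEF, with mean levels from -5.50 to -5.35, at -2.97 and from -4.40 to -3.99. Alas2, the haem synthesis enzyme of red cell precursors, was higher in hepatocytes than in MEF at least 1757-fold (adjusted p = 0.000229, limma). In iHep cells 0 of 10 tested were higher and 4 lower than in MEF, beside 10.1% and 13.2% of all genes. In hepatocytes 5 were higher and 2 lower than in MEF, beside 28.4% and 25.1% of all genes.

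Of 12 mural and stellate cell genes, 8, 9 and 8 were detected in iHep, 10 in hepatocytes and 11 on each MEF array, with mean levels from -3.72 to -2.48, at -3.38 and from -0.91 to -0.83. In iHep cells 8 were lower than in MEF and 0 higher, beside 13.2% and 10.1% of all genes. The lower ones included Des, the filament protein desmin (-5.30 ± 0.57, adjusted p = 0.00503, limma), which type 1 did not detect. Hepatocytes had 2 higher and 6 lower than MEF, beside 28.4% and 25.1% of all genes. The lower ones included Acta2 (-11.64 ± 0.77, adjusted p = 0.000487, limma), Cspg4 (at least 308-fold, adjusted p = 0.000519) and Pdgfrb (-7.17 ± 0.60, adjusted p = 0.000853). Lrat, the retinol-storing enzyme of stellate cells, went the other way. It was well above background in hepatocytes only, at least 17.4-fold above MEF (adjusted p = 0.000751, limma). Reln, from the same list, was at -0.12 in hepatocytes and at -4.28, -5.57 and -5.75 in MEF.

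The labelled cell types were read from their own markers. The 10 fibroblast genes were well above background on all iHep and MEF arrays and 8 of them on the hepatocyte array. In iHep cells 7 were lower than in MEF and 0 higher, beside 13.2% and 10.1% of all genes. Hepatocytes had 9 lower than MEF and 0 higher, beside 25.1% and 28.4% of all genes. The median difference of hepatocytes from MEF was -8.75, or -8.35 with bounds. Of the 11 hepatocyte genes, 7, 8 and 8 were detected in iHep types 1, 2 and 3, 11 in hepatocytes and 2 on each MEF array. Alb, serum albumin, was at 6.46, 7.92 and -0.21 in iHep and 9.95 in hepatocytes, and no MEF array detected it. The hepatocyte array thus held marker transcripts of hepatocytes, sinusoid endothelium and Kupffer cells together. Lrat and Alas2 were well above background there too and on no other array. The MEF arrays held transcripts of Kdr, Tek, Erg, Emcn and macrophage genes without detected Pecam1, Cdh5 or Tie1.

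Across the 7 arrays, the genes whose levels most resembled the mean level of the 10 members were Lman1, 1700020L24Rik, Oprl1, Olfr279, Mrps30, Slc35a5, Pitpnb and Pi4k2a, with Pearson's r from 0.9944 to 0.9993. The same 8 genes came first over 6 samples with MEF 2 and MEF 3 averaged. The likeness is a description over few arrays, of which the hepatocyte array stands far from the rest, and 506 tested genes had r above 0.95. Lman1, a carrier of glycoproteins out of the endoplasmic reticulum, was at 4.29, 3.94 and 3.96 in iHep, 6.03 in hepatocytes and 4.60, 4.59 and 4.63 in MEF, a far smaller span than that of the members.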

How the data were processed

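Cy3-labelled RNA of 7 samples was hybridised to 1-colour Agilent arrays. The authors deposited scanner files read with Agilent Feature Extraction 9.5.1.1, per the submitters' processing notes. Per the file headers the processed signal is a background-subtracted intensity on a linear scale, and the deposited flags (a unit other than a measurement) mark spots as outliers, saturated or well above background. Of 43379 spots per array, 66 to 104 were left out as outliers. Repeated spots were averaged, and log2 intensity was set relative to the array's 75th percentile (608 to 1484). The authors also deposited a table of 1 intensity per probe on a linear scale. Its columns follow the direction of the scanner signal (r = 0.9988 to 0.9999) and share a median of 66.4, but how they were scaled was not given in the sources used here. That table served as an alternative.

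Probes took gene names from RefSeq (GRCm38.p6) by accession (24358 of 41138 probes), by symbol or synonym (8714) or from the file (7805), and 261 had none. The test took in 19135 of 27583 genes and unnamed probes, those with a probe flagged well above background throughout 1 group or more. The 3 groups were fitted together with limma 3.58.1 in R 4.3.3 (lmFit, eBayes) with Benjamini-Hochberg adjustment, and the fit was tested on simulated data. MEF 2 and MEF 3 differed by 0.53 to 0.87 times what repeated spots predict, against 3.81 to 4.26 times for MEF 1 and MEF 2, and were averaged, although the series calls the MEF samples individually prepared. The number of arrays limits precision.

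The members, lists and alternatives were chosen with earlier results of these data known. All 10 members are named. Of each of the 10 other lists, counts are given and up to 4 called genes with the largest differences are named, with Eng, Cd34, Fli1, Stab1, Flt4, Ptprc, Adgre1 and Alb whatever their result. Others are named without values as background to a count.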

Additional observations from a re-analysis of the deposited data

How the results depend on the processing

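Of 476 member values recomputed under 18 alternatives, 447 kept their direction and their side of the threshold, 18 lost their call, 1 gained one and 10 changed sign, all 10 of them uncalled. Quantile and median scaling, the authors' values, the slide as a random block (consensus correlation -0.048), the mean of all probes and 3 separate MEF samples left 4, 7 and 8 members called in the comparisons of iHep with MEF, hepatocytes with MEF and iHep with hepatocytes. For iHep against MEF, 2 were called (Kdr and Erg) with a normexp background and 2 within slide 1, and 2 to 4 when samples were left out (2 without MEF 1, 2 without MEF 2 and 3). With no filter on dim probes 3 were called, and Lyve1 was not. For hepatocytes against MEF, 5 were called without MEF 1 (Kdr and Tek lost), and 6 with normexp (Tek lost), with an intensity trend (Tek lost) and without iHep type 2 (Kdr lost). Normexp shrank differences against undetected readings, such as Pecam1 in hepatocytes against MEF (1.43, against 5.12). Requiring detection on all 7 arrays left only Flt1 and Stab2 to test, of which 0, 1 and 1 were called by limma in the 3 comparisons (0, 1 and 1 at an unadjusted p under 0.05). With the scanner's flag for positive and significant spots, 7, 7 and 6 members were detected in iHep types 1, 2 and 3. The same flag detected 10 members in hepatocytes and 6, 8 and 8 in MEF 1, 2 and 3. The lower count of detected members in iHep than in MEF thus depended on the flag. With this flag types 1 and 2 exceeded MEF 1, and type 3 equalled it.

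Uncalled differences that changed sign were, for iHep against MEF, Tie1 with normexp (-0.060), within slide 1 (-0.32) and without MEF 2 and 3 (-0.32), Pecam1 within slide 1 and without MEF 2 and 3 (-0.19 in both), and Clec4g with the mean of all probes (0.075) and without iHep type 3 (-0.50 to 0.25 over the left-out samples). For hepatocytes against MEF, Flt1 (0.35 with all samples, -0.65 to 1.35 over the left-out samples) and Erg (-1.02 with all, -2.26 to 0.21) did so without MEF 1, and Lyve1 (-0.41 to 1.70) did so for iHep against hepatocytes without iHep type 1. The cause was not tested. Same-numbered MEF and iHep samples did not deviate together (r of -0.02 to 0.03 over genes). MEF 2 and MEF 3 were nearly alike and the iHep arrays differ by type. This check therefore cannot tell whether the numbers pair them. A fit with the replicate number as a block called 3 members for iHep against MEF (Kdr, Tek and Erg).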

Other observations

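A list of 10 Notch and ephrin genes covered arterial and venous identity. All 10 were well above background on each iHep array, against 9 on the hepatocyte array and 8, 9 and 9 on the MEF arrays. In iHep cells 3 were higher and 3 lower than in MEF, where 23.3% of all genes were called, with a median difference of -0.04, against -0.04 over all tested genes. Dll4, a Notch ligand of sprouting and arterial endothelium, was at -1.98, -2.52 and -2.49 in iHep, -3.68 in hepatocytes and below detection on all MEF arrays, so iHep cells were higher at least 15.2-fold (adjusted p = 0.00152, limma). Jag2, another Notch ligand, rose by 5.12 ± 0.77 (adjusted p = 0.0120), and Notch4, a receptor found mainly in endothelium, by 2.66 ± 0.65 (adjusted p = 0.0441). MEF 1 did not detect Jag2, and MEF 2 and MEF 3 read -6.14 and -6.05. Jag1 was lower (-1.65 ± 0.42, adjusted p = 0.0478). In hepatocytes 3 of the 10 were higher and 3 lower than in MEF, near the 53.5% of all genes called. The gap junction gene Gja4 differed by 3.72 ± 0.40 (adjusted p = 0.00183, limma) and Unc5b by -5.61 ± 0.38 (adjusted p = 0.000530).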
